A study of Mus musculus with 51 samples.

Results

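The genes described here are 10 writers and erasers of methylation at lysine 4 of histone H3 (H3K4) in mouse: the methyltransferases Kmt2a, Kmt2b, Kmt2c, Kmt2d, Setd1a and Setd1b and the demethylases Kdm5a, Kdm5b, Kdm1a and Kdm1b. They were chosen by name and not by a rule on measured values, but with earlier results of these data known. They are 10 of the 37525 genes that the RNA tables hold together. RNA was sequenced from C57BL/6 embryos at 18h, 20h, 22h and 24h, each either control or LoNA KO, where LoNA is a long noncoding RNA of the nucleolus and KO is a knockout. The labels call the embryos 2-cell, and they do not say from which event the hours were counted, how the knockout was made or how many embryos each sample pooled. RNA was also sequenced from C57BL/6 mESC, mouse embryonic stem cells labelled as 2C-like (resembling the 2-cell embryo), either control or with a knockdown (KD) of LoNA. In 24h embryos, H3K4me3 (trimethylated H3K4) and H3K27me3 (trimethylated H3K27) were profiled in control and LoNA KO embryos. Acetylated nucleophosmin (AcNPM1) was profiled in control and LoNA KO embryos, and in KO embryos after treatment with a p300 inhibitor, which blocks an acetyltransferase. The treatment field names the p300 inhibitor for every chromatin sample, so the groups were taken from the titles.

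H3K4 methylation marks gene starts and enhancers. The KMT2 and SETD1 proteins write it inside large complexes built on shared subunits, with Setd1a and Setd1b serving bulk trimethylation, Kmt2a and Kmt2b serving chosen promoters, and Kmt2c and Kmt2d placing the monomethyl mark at enhancers. The KDM5 enzymes take off tri- and dimethyl groups and the KDM1 enzymes take off di- and monomethyl groups. Around fertilisation the mark is unusual: the mouse oocyte carries broad H3K4me3 domains away from gene starts, which are removed in the 2-cell embryo as the zygotic genome becomes active, a removal in which Kdm5a and Kdm5b take part. Kmt2b is the main writer of those oocyte domains, and Kdm1b is needed in the oocyte for maternal imprints.

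The analysis used 3 libraries per group at 18h, 20h and 22h, 2 per group at 24h and 2 count columns per group in the mESC, with 12077497 to 18286944 counted reads each. No gene of the tables is named LoNA, so the labels could not be checked by that name. The lincRNA Gm17382, singled out after its values were seen, had 507 to 12333 reads in control embryos at 18h to 22h against 0 to 3 in KO embryos, and 382 to 402 against 0 to 1 in mESC, where the mean the authors deposited for it does not match its counts. The 24h table does not list it. The 24h libraries stood apart: 7877 to 10167 genes had reads and 12.9% to 19.3% of reads were mitochondrial, against 17125 to 23957 genes and 1.48% to 9.84% elsewhere. Maternal oocyte genes summed to at least 10273 CPM in every embryo library. CPM are counts of a gene per 1000000 reads of the tested genes in its library, after TMM scaling between the libraries of a table. In control mESC, 10 pluripotency genes summed to 6211 to 6258 CPM, and 17 two-cell genes to 18.5 to 18.7 CPM, against 267.7 to 2471 CPM in control embryos.

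The 24h table lists 9 of the 10 genes, all but Kmt2a, and each of the other tables lists all 10. Levels are given in CPM and are compared only within a gene, since CPM is not corrected for transcript length. Over the 18 embryo libraries of 18h to 22h, 8 of the genes had at least 35 reads in every library. The other two were lower. Kmt2a ranged from 0 to 54 reads, a median of 1.21 CPM, and was under 1 CPM in 8 of the 18 libraries. Kdm5a ranged from 10 to 380 reads, with a median of 4.69 CPM, and its lowest and highest libraries held 0.912 and 24.4 CPM.

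**Figure D1:**
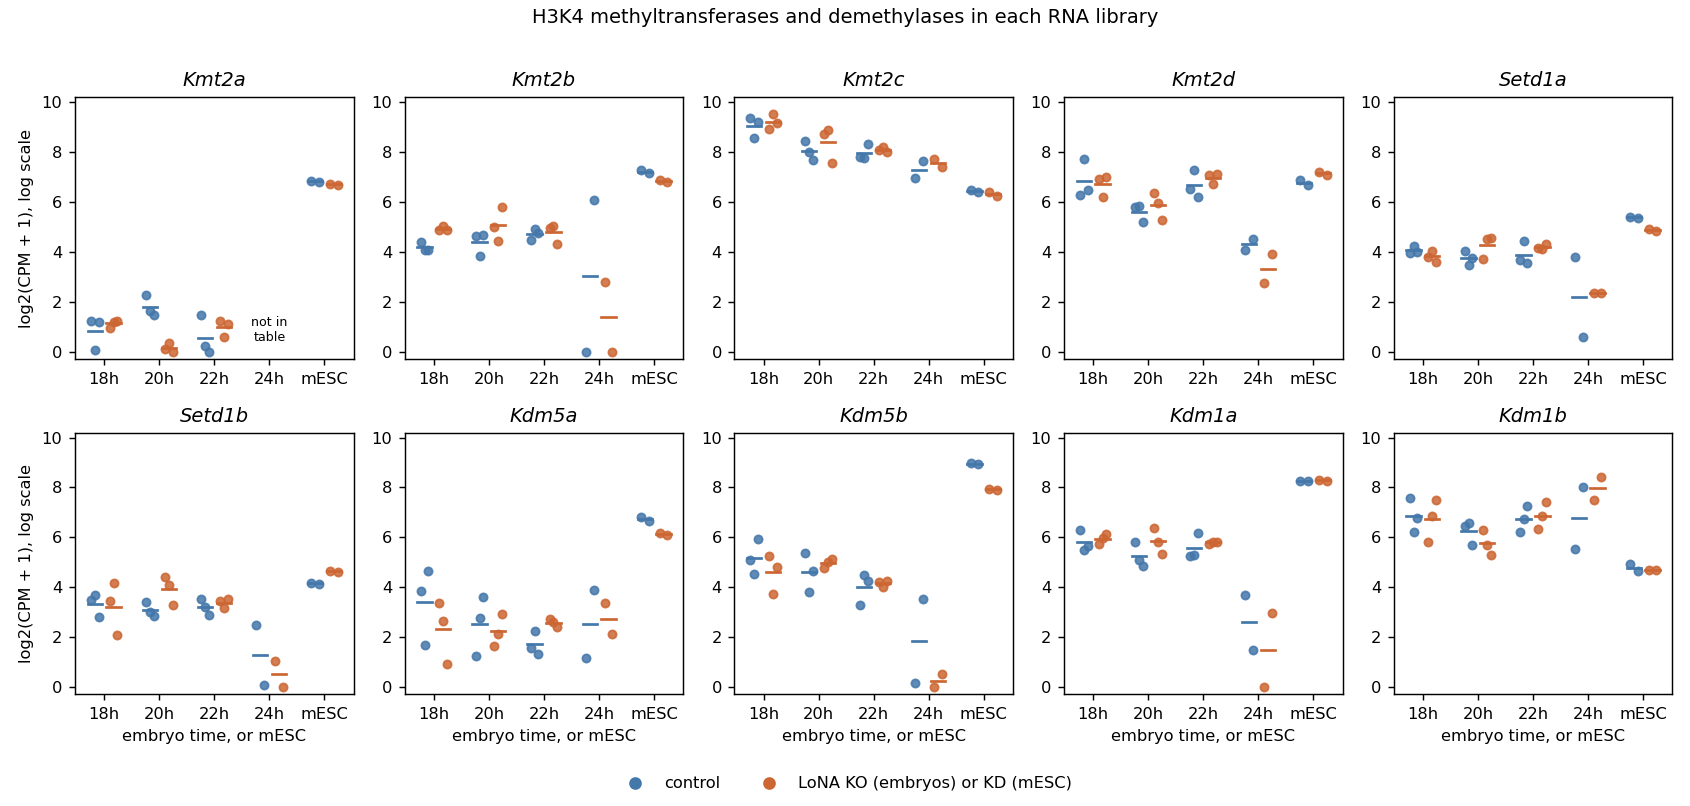
RNA level of each gene in every library, as log2(CPM + 1) on a log scale, for embryos at 18h, 20h, 22h and 24h and for mESC; points are libraries, bars their means, blue for control and orange for LoNA KO or KD. Kmt2a and Kdm5a lie near 0 to 5 on this scale in embryos and near 7 in mESC, and the 24h points of a group lie far apart for Kmt2b, Kdm5b and Kdm1a.

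The first comparison asked whether loss of LoNA changed the RNA of these genes in the embryo. No gene of the 10 passed the test used, edgeR's quasi-likelihood test with Benjamini-Hochberg adjustment over all genes, at 18h, 20h or 22h. The share of all genes called was itself 0.00649% at 18h, 0.0138% at 20h and 0.00656% at 22h, so a count of 0 among 10 does not set these genes apart. At an unadjusted p under 0.05 the test passed 1 gene at 18h (Kmt2b), 1 at 20h (Kmt2a) and 0 at 22h, against 5.14%, 3.66% and 3.15% of all genes. DESeq2 also called 0 of the 10 at each time. In simulated data edgeR recovered 28% of 4-fold changes at 18h, 19.5% at 20h and 52.5% at 22h, so a real change could go uncalled.

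Kmt2b, which trimethylates H3K4 at promoters and builds the oocyte domains, had the clearest separation at 18h. Its control libraries held 20.0, 15.7 and 15.8 CPM and its KO libraries 28.1, 32.1 and 28.6 CPM. Every KO library was above every control, and 12.8% of all genes showed no overlap in one direction or the other. The log2 change was 0.79 (SE 0.35, n = 3 against 3), with an edgeR adjusted p of 0.967. At 20h the control libraries of Kmt2b held 23.7, 13.3 and 24.5 CPM and the KO libraries 30.8, 20.4 and 54.7 CPM, which overlap, with a log2 change of 0.78 (SE 0.47, edgeR adjusted p = 0.998). By 22h the values were 21.5, 29.5 and 26.1 CPM against 30.3, 32.0 and 18.9 CPM, a log2 change of 0.08 (SE 0.31). Fitted over the 3 times together, Kmt2b had a log2 change of 0.55 (SE 0.22), with an edgeR adjusted p of 0.946.

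Kmt2a, the founding member of the family and a partner of menin, was counted on very few reads. At 20h the control libraries held 54, 29 and 21 reads and the KO libraries 1, 4 and 0 reads. The groups did not overlap, as was true of 9.87% of all genes. The fitted log2 change of -4.42 (SE 1.80, edgeR adjusted p = 0.998) rests on 104 reads in controls and 5 in KO, and its size depends on how low counts are handled. At 18h the reads were 17, 1 and 20 in controls against 15, 17 and 15 in KO, and at 22h they were 27, 3 and 0 against 24, 9 and 19, with overlap at both times.

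Kdm5a, a demethylase of the trimethyl mark, was the gene whose groups did not overlap at 22h, where this held for 9.23% of all genes. The controls held 1.99, 3.74 and 1.51 CPM and the KO libraries 5.60, 5.10 and 4.27 CPM, a log2 change of 1.05 (SE 0.59, edgeR adjusted p = 1). Its direction was the opposite at the earlier times, with log2 changes of -1.37 (SE 0.93) at 18h and -0.59 (SE 0.96) at 20h and overlapping groups at both. The test of whether the KO effect on Kdm5a differed between the times gave an edgeR adjusted p of 0.848. Fibroblast markers also did not overlap at 22h: 5 of the 8 were in the table, and they summed to 7.83 to 8.92 CPM in controls and 1.84 to 6.88 CPM in KO. The summed two-cell genes did not overlap either, with 283.5, 267.7 and 291.5 CPM in controls and 408.4, 345.2 and 335.7 CPM in KO. The part of these lists in the Kdm5a values, and in the direction of the other 22h changes, was not tested.

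Setd1b, a writer of bulk H3K4me3, had the next largest change at 20h, where the controls held 9.75, 6.96 and 6.26 CPM and the KO embryos 20.1, 15.9 and 8.67 CPM. The lowest KO library lay below the highest control (log2 0.96, SE 0.57, edgeR adjusted p = 0.998). For its paralog Setd1a, and for Kmt2c, Kmt2d, Kdm5b, Kdm1a and Kdm1b, the groups overlapped at 18h, 20h and 22h, with log2 changes from -0.58 (Kdm5b at 18h) to 0.62 (Kdm1a at 20h).

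The direction of the log2 change was positive for 5 of the 10 genes at 18h, 7 at 20h and 10 at 22h, against 48.8%, 48.4% and 49.8% of all genes. The 22h changes ran from 0.08 (Kmt2b) to 1.05 (Kdm5a) with a median of 0.17, where the median of all genes was -0.0021. None of these 10 passed the test, and the genes are not independent of each other. In the fit over 18h, 20h and 22h, edgeR called 0 of the 10 genes (0.00527% of all genes), 1 had an unadjusted p under 0.05, Kmt2b, against 4.91% of all genes, and DESeq2 called 0. The test of a KO effect that differs between times called 0 of 10 by edgeR (0% of all genes), 0 had an unadjusted p under 0.05 against 6.27% of all genes, DESeq2 called 0, and the lowest edgeR adjusted p was 0.821, for Kmt2a.

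**Figure D2:**
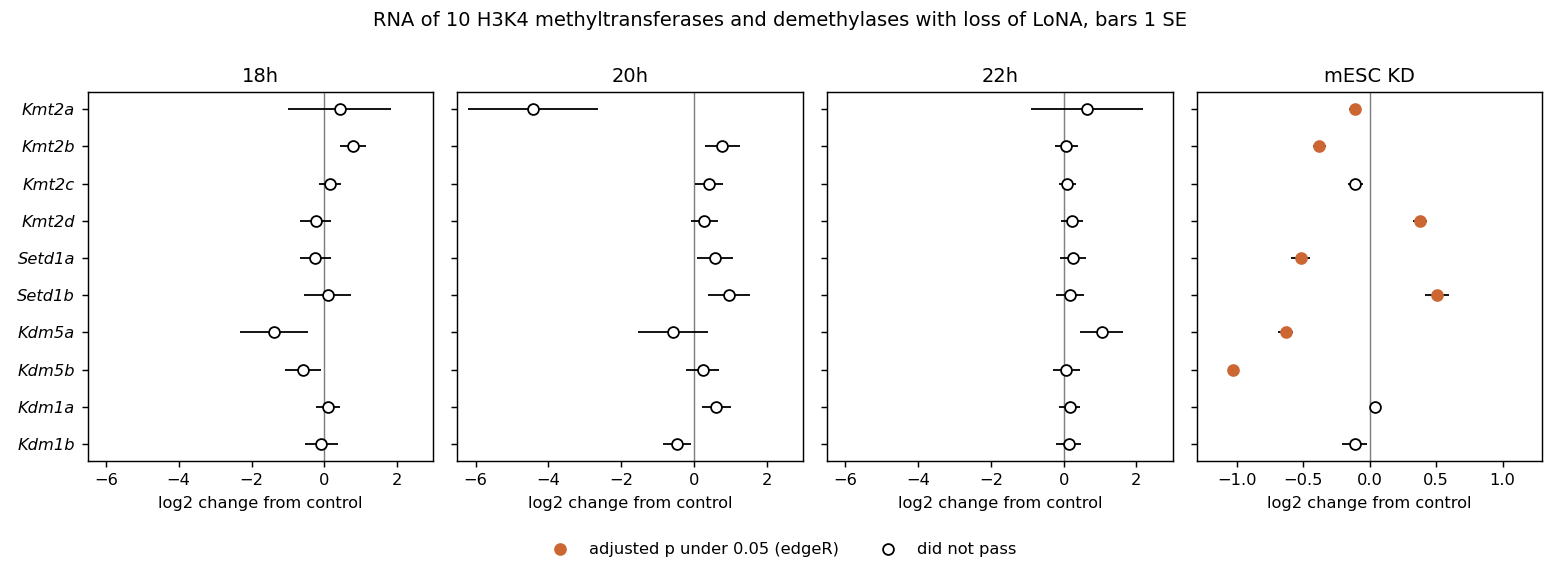
Log2 change of each gene in LoNA KO over control embryos at 18h, 20h and 22h and in LoNA KD over control mESC (an axis of its own range), with bars of 1 SE; filled points passed an edgeR adjusted p of 0.05. No embryo point is filled, Kmt2a at 20h lies at -4.42 with a wide bar, and 7 of the 10 mESC points are filled.

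Genes whose products work with these enzymes also did not pass at 18h, 20h or 22h. From 4 lists of 53 genes in all (subunits of the methyltransferase complexes, other H3K4 methyltransferases and KDM5 paralogs, partners of the LSD1-CoREST and KDM5 complexes, and readers of H3K4 methylation), edgeR called 0 of 48 tested at 18h, 0 of 46 at 20h and 0 of 48 at 22h. Of all genes, edgeR called 0.00649%, 0.0138% and 0.00656% at these times. An unadjusted edgeR p under 0.05 was reached by 4, 0 and 2 of the list genes, against 5.14%, 3.66% and 3.15% of all genes. DESeq2 called 0, 0 and 0 of the list genes. The complex subunits had a median log2 change of 0.31 at 18h, 0.06 at 20h and 0.10 at 22h, where all genes had -0.02, -0.03 and -0.0021. The partners of the LSD1-CoREST and KDM5 complexes had medians of 0.33, 0.06 and -0.01 at these times. The other methyltransferases and KDM5 paralogs had 0.02, -0.03 and -0.05, and the readers had -0.04, 0.15 and 0.09.

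At 24h the libraries of a group disagreed so widely that no change could be read. Of the 9 genes in the table, 8 had enough reads to test, edgeR called 0 of them (0% of all genes), 0 had an unadjusted p under 0.05 against 5.16% of all genes, and DESeq2 called 0. In simulated data edgeR recovered 0% of 4-fold changes at 24h, so a real change could go uncalled. Kmt2b had 0 and 971 reads in the controls and 83 and 0 in KO, and Kdm5b, which was not tested, had 2 and 151 against 0 and 7. Kdm1a, the demethylase of the CoREST complex, had 193 and 26 reads in the controls and 0 and 112 in KO. In all, 4 of the 9 genes had no read in at least 1 of the 4 libraries, although each had reads in all 18 earlier embryo libraries.

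The other genes gave reads in every 24h library. Kmt2c, an enhancer methyltransferase, held 124.1 and 197.3 CPM in controls and 212.0 and 167.7 CPM in KO (log2 0.24, SE 0.90). Kdm1b, the oocyte demethylase, held 45.2 and 261.4 CPM in controls and 181.9 and 345.7 CPM in KO (log2 0.78, SE 1.08). Kmt2d was the gene without overlap, with 15.9 and 22.0 CPM in controls against 5.65 and 13.9 CPM in KO (log2 -0.95, SE 2.66, edgeR adjusted p = 1), but 33.3% of all genes showed no overlap with 2 libraries a group.

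The embryo libraries also give the course of the genes from 18h to 22h, over control and KO together. Of the 10 genes, 2 changed with time by edgeR, Kmt2c and Kmt2d, and their courses differed. The share of all genes called was 21.2%, so a count of 2 among 10 does not set these genes apart. Each time is a table of its own, so time and table cannot be told apart. The log2 differences and adjusted p came from the joint fit, which scaled all 18 libraries together. The CPM were scaled within each time, so CPM of different times are not on a common scale. Over the same libraries the two-cell genes summed to 653.2 to 2454 CPM at 18h, 437.1 to 1098 CPM at 20h and 267.7 to 408.4 CPM at 22h. The maternal oocyte genes summed to 11235 to 21056 CPM, 18839 to 34566 CPM and 10273 to 19390 CPM at these times, and mitochondrial reads were 2.86% to 9.84%, 3.87% to 6.38% and 1.62% to 2.99%. Their part in the time changes was not tested. Kmt2c fell by 0.83 on the log2 scale from 18h to 20h and by 1.16 from 18h to 22h (edgeR adjusted p = 0.00152). Its 6 libraries ran from 378.3 to 741.8 CPM at 18h (median 584.1), from 185.8 to 472.6 CPM at 20h (median 301.7) and from 218.7 to 319.8 CPM at 22h (median 263.3). In CPM scaled within each time, all 22h libraries were below all 18h libraries. Kmt2c remained past the threshold whichever of the 18 libraries was left out (edgeR adjusted p from 0.000784 to 0.00423).

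Kmt2d was lower at 20h than at 18h and 22h. Its 6 libraries ran from 71.4 to 212.9 CPM at 18h (median 104.1), from 35.7 to 80.8 CPM at 20h (median 55.6) and from 71.7 to 156.2 CPM at 22h (median 119.3). Relative to 18h the log2 difference was -1.07 at 20h and -0.06 at 22h (edgeR adjusted p = 0.0131, and 0.00661 to 0.0392 with each library left out in turn). The ranges of 20h and of the other times overlapped, with the highest 20h library above the lowest at 18h and 22h.

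With Kmt2c and Kmt2d, 4 genes had an unadjusted p under 0.05 (32.6% of all genes), the other two being Kdm5b and Kdm1b, which did not pass. Kdm5b, a demethylase of the trimethyl mark, had medians of 30.1, 28.7 and 17.9 CPM at 18h, 20h and 22h, with a log2 difference of -1.002 from 18h to 22h (edgeR adjusted p = 0.0764, and 0.0203 to 0.192 with each library left out, passing at 0.0203 without KO library 2 of 18h and at 0.0325 without control library 2 of 20h). DESeq2 gave an adjusted p of 0.0183 for Kdm5b. Kdm1b had a log2 difference of -0.83 at 20h and -0.09 at 22h (edgeR adjusted p = 0.092, and 0.0435 without KO library 1 of 18h), with 38.4 to 95.1 CPM at 20h against 55.6 to 188.6 at 18h and 72.5 to 170.5 at 22h. For the other 6 genes the edgeR adjusted p lay between 0.373 (Kdm5a) and 0.974 (Kmt2a).

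**Figure D3:**
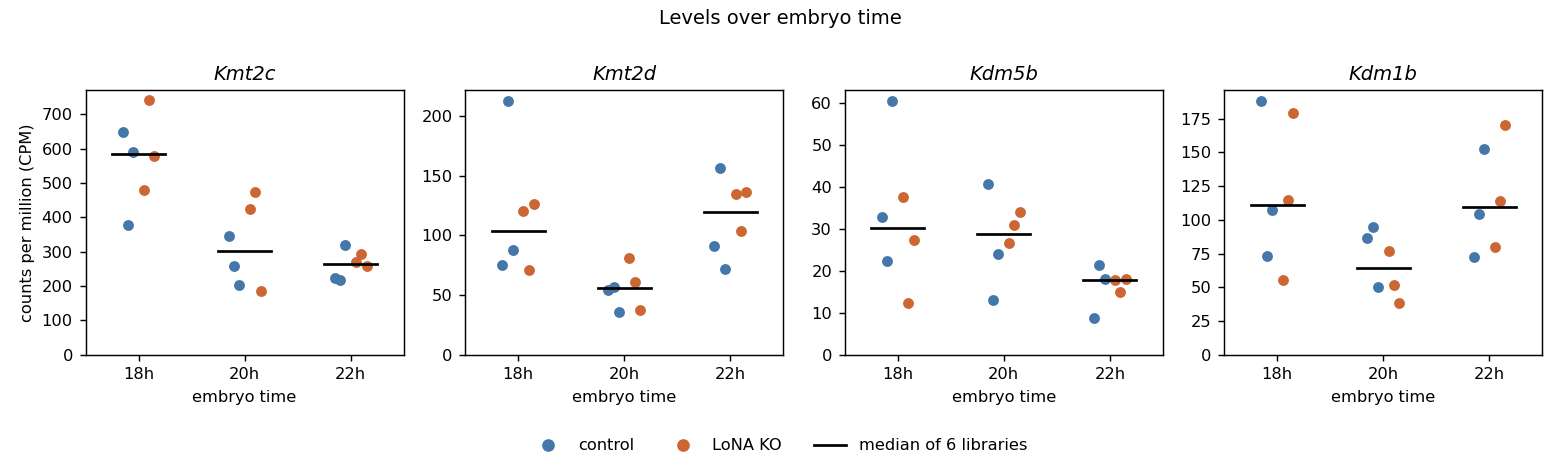
Levels of Kmt2c, Kmt2d, Kdm5b and Kdm1b in CPM (axes from 0, each panel with its own range) in the 6 embryo libraries of each time; blue points are control, orange LoNA KO, and the black bar is the median of the 6. Kmt2c falls from a median of 584.1 to 263.3 CPM between 18h and 22h, and the medians of Kmt2d and Kdm1b are lowest at 20h. The CPM were scaled within each time and are not on a common scale between times.

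Knockdown of LoNA in mESC gave a different picture, with 7 of the 10 genes passing the test and 74.2% of all genes passing with them. Of the 7, 5 were lower in KD (Kdm5b, Kdm5a, Setd1a, Kmt2b and Kmt2a) and 2 were higher (Setd1b and Kmt2d), where 35.3% of all genes were called lower and 38.9% higher. The groups did not overlap for 8 of the 10 genes, as for 86.6% of all genes. The median log2 change of the 10 genes was -0.11 and that of all genes 0.01. The columns of 1 mESC group correlated at 0.998, past the 0.99 at which 24h columns were summed to 1 library. They may be repeat runs of 1 library and were kept apart only because summing them leaves 1 per group and no test, so the p-values below measure only the spread between such columns. Markers of cell state also moved in KD: all 10 pluripotency genes were called lower and summed to 2877 to 2979 CPM against 6211 to 6258 CPM in controls. Of the 8 fibroblast markers 7 were called lower, with a sum of 222.0 to 224.2 CPM against 523.3 to 544.7 CPM, and Col1a1 alone had 1671 to 1712 reads against 4110 to 4391. The two-cell genes summed to 7.87 to 7.92 CPM in KD against 18.5 to 18.7 CPM, and the maternal oocyte genes to 36.6 to 41.6 CPM against 64.9 CPM. The remaining marker lists were lower in KD as well. Cumulus and granulosa markers summed to 35.2 to 39.3 CPM in KD against 55.8 to 61.0 CPM. Blood markers summed to 8.80 to 9.95 CPM against 15.3 to 16.3 CPM. Sperm and testis markers summed to 1.05 to 1.37 CPM against 1.95 to 2.29 CPM. Mitochondrial reads were 2.24% to 2.26% of the library in KD and 1.48% to 1.53% in controls. The part of these markers and of the mitochondrial share in the changes of the 10 genes was not tested, and in bulk RNA, fewer cells of a type and less RNA per cell cannot be told apart.

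Kdm5b changed most. The control columns held 503.0 and 486.7 CPM and the KD columns 246.7 and 238.6 CPM, so that KD was at 0.490 of the control level (log2 -1.03, SE 0.04, n = 2 against 2, edgeR adjusted p = 6.56e-16). Its paralog Kdm5a fell from 111.6 and 101.1 CPM to 70.7 and 66.6 CPM (log2 -0.63, SE 0.06, edgeR adjusted p = 1.43e-09). Kdm5b and Kdm5a, the KDM5 genes chosen here, were thus both lower in KD, where 35.3% of all genes were called lower. Other KDM5 paralogs were not among the chosen genes and belong to the second list below. Of the KDM1 pair, neither passed: Kdm1a held 304.4 and 304.6 CPM in controls and 316.8 and 309.2 CPM in KD (log2 0.04, SE 0.04), and Kdm1b held 29.2 and 24.0 CPM against 24.5 and 24.7 CPM (log2 -0.11, SE 0.09). The Kdm1b change turned to 0.036 when control column 1 was left out and to -0.24 (edgeR adjusted p = 0.0417) when control column 2 was left out.

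Among the writers, the SETD1 pair moved in opposite directions. Setd1a fell from 41.0 and 40.0 CPM to 29.1 and 27.5 CPM (log2 -0.52, SE 0.07, edgeR adjusted p = 1.95e-06), while Setd1b rose from 17.2 and 16.4 CPM to 24.2 and 23.5 CPM (log2 0.51, SE 0.09, edgeR adjusted p = 4.41e-05). Kmt2b fell from 154.0 and 141.4 CPM to 116.7 and 110.6 CPM (log2 -0.38, SE 0.05, edgeR adjusted p = 5.71e-07). Kmt2a moved little, from 113.8 and 110.8 CPM to 105.4 and 102.7 CPM (log2 -0.11, SE 0.05, edgeR adjusted p = 0.0386), and its call was lost with DESeq2 (adjusted p = 0.138), without the filter on low counts and with any of the 4 columns left out. Kmt2d rose from 115.3 and 101.1 CPM to 145.9 and 135.7 CPM (log2 0.38, SE 0.06, edgeR adjusted p = 2.52e-06). Kmt2c did not pass, with 87.8 and 82.3 CPM against 82.7 and 75.2 CPM (log2 -0.11, SE 0.06, edgeR adjusted p = 0.0935). Whether the changes within a pair differ from each other was not tested.

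Genes of the complexes around these enzymes were called in both directions in KD, as were genes in general: 38.9% of all genes were higher and 35.3% lower, and the counts of the 4 lists below are to be read against these shares. Of 15 subunits of the methyltransferase complexes tested, 5 were higher and 9 lower, with a median log2 change of -0.32 against 0.01 for all genes. By size of change the leading subunits were Hcfc2, a relative of the host cell factor, which rose by 1.58 (SE 0.08), and Bod1, first known for its part in chromosome biorientation, which rose by 1.04 (SE 0.07). Ncoa6, a coactivator in the Kmt2c and Kmt2d complexes, rose by 0.75 (SE 0.06), and Kdm6a, the H3K27 demethylase of the same complexes, fell by 0.74 on the log2 scale (SE 0.06). Each had an edgeR adjusted p of 4.23e-10 or less.

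In the second list, of other H3K4 methyltransferases and KDM5 paralogs, 5 of 11 were higher and 3 lower (median 0.03). Prdm9, the meiotic H3K4 methyltransferase, rose by 1.52 on the log2 scale from a mean of only 2.70 CPM, Smyd2 rose by 1.09 and Setd7 by 0.63, and the Y-linked paralog Kdm5d fell by 1.40 from 0.947 CPM. Among the LSD1-CoREST and KDM5 partners 6 of 12 were higher and 6 lower (median -0.02). Rcor3, a CoREST paralog, rose by 1.67, the deacetylase Hdac2 by 0.70 and Hmg20b by 0.57, and Zmym3 fell by 0.44. Among readers of H3K4 methylation 4 of 14 were higher and 6 lower (median -0.05). Phf2 rose by 1.22 and Ing2 by 0.74, while Ing4 fell by 1.15 from 1.38 CPM and Bptf, the largest subunit of the NURF remodeller, fell by 0.56.

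Set beside control embryos at 22h, control mESC held higher CPM of 8 of the 10 genes. This is a description with no test, since the tables were normalised separately and came from different cells. The share of all genes that was higher in mESC was not computed, so the count of 8 does not set these genes apart. Maternal oocyte genes summed to 12650 to 19390 CPM in the 22h controls and to 64.9 CPM in control mESC. Their part in these differences was not tested. Kmt2a was at 112.3 CPM in mESC and 0.637 CPM in 22h embryos, Kdm5a at 106.3 and 2.41 CPM, and Kdm5b at 494.9 and 16.1 CPM. Kmt2d was nearly equal, at 108.2 and 106.3 CPM. The 2 genes that were lower in mESC were Kmt2c, at 85.03 against 253.9 CPM, and Kdm1b, at 26.6 against 110.0 CPM.

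Chromatin of 24h embryos was then read at the starts of these genes, with a window of 2 kb on each side. H3K4me3 peaks were in the window of 9 of the 10 genes, 14 peaks in all, where 72.5% of 20022 protein-coding genes had one. The deposited table has 1 column per condition, so the differences between control and KO have no replicate check, and its columns are named by initials that were assigned to control and KO by the order of the table's ratio and its title. A peak's height is given in RPM, its reads scaled to the total reads of the condition, and the intervals below are 95% exact binomial intervals of the split of reads, covering counting error only.

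The KMT2 genes each had a pair of peaks. For Kmt2a, Kmt2b and Kmt2c the pair lay on either side of the annotated start, and for Kmt2d one of them covered it. Setd1a, Kdm5a and Kdm1b each had 1 broad peak over the start, of 2159, 2352 and 2006 bp, wider than 96.3%, 98.1% and 93.4% of all H3K4me3 promoter peaks. The Kdm1b peak (chr13:47042752-47044758, mm10) held the most reads of the 14, at 35.4 RPM in control, above 97.6% of promoter peaks, and 17.7 RPM per kb of its width, above 89.6%. Kdm1a had a smaller peak over its start (chr4:136602031-136602837) and another further inside the gene, and Setd1b had only a peak of 408 bp at 1104 bp downstream of its start (chr5:123143297-123143705). The windows of Kdm5a and Kdm1b also hold the starts of the protein-coding genes Ccdc77 and Tpmt, and those of Kmt2c, Setd1b and Kmt2b hold the starts of the lincRNAs 4831440E17Rik and AI480526 and of the microRNA Mir3569, so the peaks of these 5 genes cannot be assigned to 1 gene.

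Kdm5b was the gene with no H3K4me3 peak within 2 kb of its start. Its nearest peak (chr1:134555295-134557228) ended 2943 bp upstream of the start at 134560171 and was 1933 bp wide, with 28.1 RPM in control and 24.4 RPM in KO. Another 2 peaks lay inside the gene, 9847 and 22917 bp downstream of the start, with 11.8 and 2.99 RPM in control and 9.77 and 2.56 RPM in KO. The log2 ratios of these 3 peaks were -0.21, -0.27 and -0.22.

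The promoter sequences of 3 genes are shown because their H3K4me3 differs: a broad peak covers the whole printed stretch of Kdm1b, the peak of Kdm1a that changed most covers 114 bp of it, and no peak lies over that of Kdm5b. Each is the 250 bases before the RefSeq start on GRCm38.p6 (mm10), 5′ to 3′ on the gene's strand, with CG dinucleotides, the sites of DNA methylation in mammals, in capitals.
Kdm1b, chr13:47043249-47043498, plus strand: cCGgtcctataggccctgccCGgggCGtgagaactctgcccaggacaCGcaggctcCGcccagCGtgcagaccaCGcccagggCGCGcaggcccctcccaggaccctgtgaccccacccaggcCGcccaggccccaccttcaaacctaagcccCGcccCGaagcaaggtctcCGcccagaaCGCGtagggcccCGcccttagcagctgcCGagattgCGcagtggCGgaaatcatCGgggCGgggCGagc
Kdm1a, chr4:136602724-136602973, minus strand: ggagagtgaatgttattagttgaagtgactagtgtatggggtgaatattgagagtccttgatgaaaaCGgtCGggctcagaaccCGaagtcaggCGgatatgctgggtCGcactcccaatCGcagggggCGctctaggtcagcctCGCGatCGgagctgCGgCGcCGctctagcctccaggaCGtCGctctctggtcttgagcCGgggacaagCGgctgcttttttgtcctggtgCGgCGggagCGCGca
Kdm5b, chr1:134559928-134560177, plus strand: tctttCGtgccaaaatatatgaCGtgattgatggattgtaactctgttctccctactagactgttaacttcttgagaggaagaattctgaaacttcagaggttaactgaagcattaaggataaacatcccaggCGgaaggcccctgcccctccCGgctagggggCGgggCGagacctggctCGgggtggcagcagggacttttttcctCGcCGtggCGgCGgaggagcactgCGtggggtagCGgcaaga

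RefSeq promoters were matched for 7 of the 10 genes. The motif searched was CG, which reads the same on both strands and cannot overlap itself. Kdm5b had 13 such sites in 250 bases, Kdm1a 21 and Kdm1b 22, and the other matched genes had 25 (Setd1a), 26 (Kmt2d), 29 (Kmt2a) and 48 (Kmt2c). The RefSeq start of Setd1a differs from the start used for its peak (127776670), and its 250 bases (chr7:127777139-127777388) lie downstream of the latter. Among all 32851 promoters of this length, 92.1% held at least 1 site, the median was 6, and 31.5%, 16.3% and 14.8% held as many as Kdm5b, Kdm1a and Kdm1b. Only 0.186% held as many as Kmt2c. All 7 matched genes had more CG sites than the median promoter, and Kdm5b had the fewest of the 7. The lack of a peak over these 250 bases was not particular to Kdm5b. No H3K4me3 peak lay over those of Kmt2a and Kmt2c either, which had the most sites of the 7.

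Between control and KO, none of the 14 H3K4me3 peaks passed 2-fold (0.0383% of promoter peaks) or 1.5-fold (1.18%). Log2 ratios of KO over control ran from -0.21 to 0.37, with a median of -0.06 against -0.12 for all promoter peaks. Of the 14 peaks 6 were above 0 and 8 below, where 23.8% of promoter peaks were above 0. Scaled by the reads in peaks in place of total reads, 10 were above 0 and 4 below, where 45.9% of promoter peaks were above 0. The peak over the start of Kdm1a had the largest rise, from 5.71 to 7.37 RPM (380 and 366 reads, log2 0.37, interval 0.16 to 0.58), which is above 98.7% of promoter peaks. The second Kdm1a peak, inside the gene, went the other way, from 5.62 to 4.85 RPM (log2 -0.21, interval -0.45 to 0.03). The upstream peak of Kmt2c held 14.4 RPM in control and 16.2 RPM in KO (log2 0.17, interval 0.03 to 0.31), above 93.4% of promoter peaks.

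At the peaks with the most reads, the KO value was slightly below the control value, as was the median of all promoter peaks (log2 -0.12). Kdm1b held 35.4 and 33.2 RPM (log2 -0.09, interval -0.18 to -0.0014), the upstream peak of Kmt2b 29.9 and 26.6 RPM (log2 -0.17, interval -0.27 to -0.07) and Setd1a 26.6 and 24.8 RPM (log2 -0.10, interval -0.21 to 0.0012). Kdm5a held 25.6 and 24.6 RPM (log2 -0.06, interval -0.17 to 0.05), and the upstream peak of Kmt2a 21.7 and 19.4 RPM (log2 -0.16, interval -0.28 to -0.04). All of these ratios lay inside the grey band of the peak plot, which spans -0.34 to 0.11. When RPM was scaled by the reads in peaks, of which the control had 42.2% and the KO 39.3% of its total, every log2 ratio was higher by 0.11, which turned those of Kdm1b to 0.01, of Setd1a to 0.00097, of Kdm5a to 0.05 and of the downstream Kmt2a peak from -0.05 to 0.05, and left the upstream peak of Kmt2b at -0.06.

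**Figure D4:**
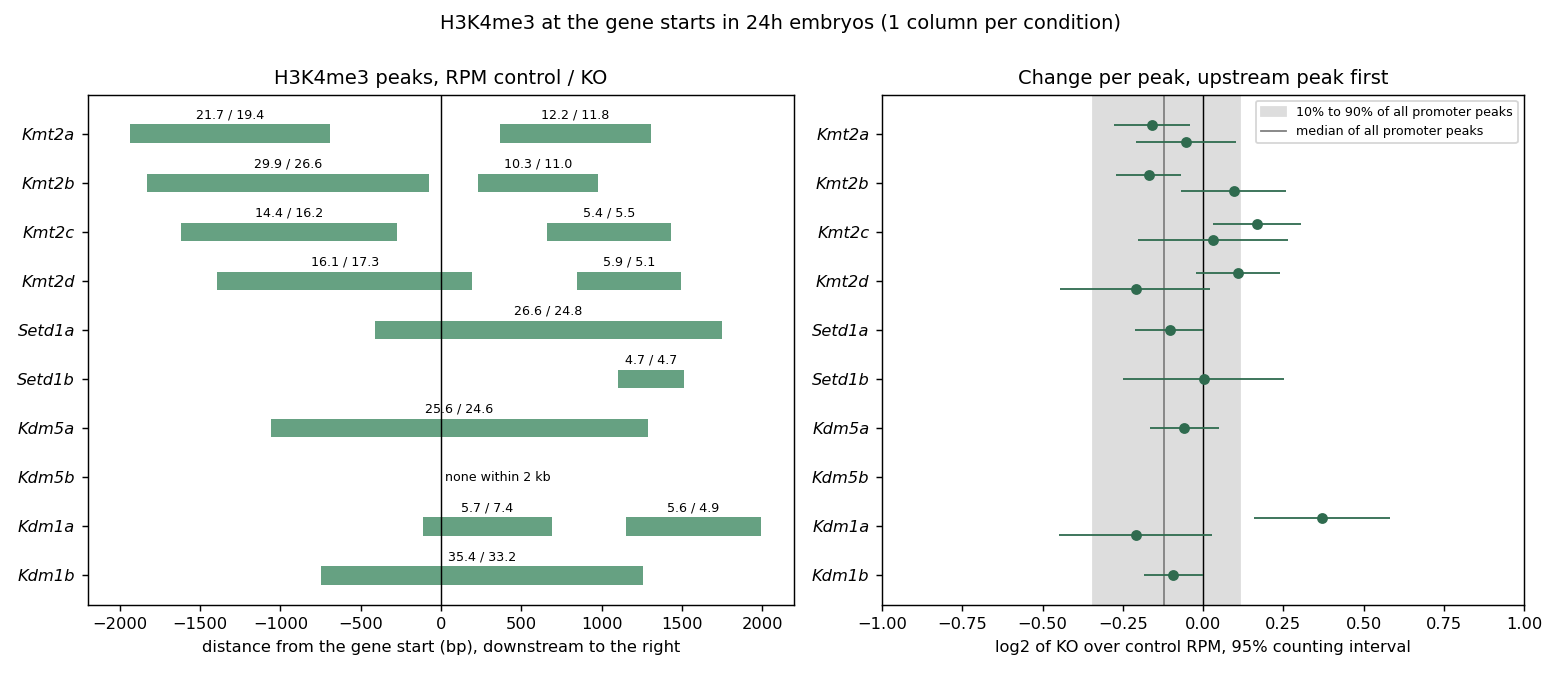
Left, H3K4me3 peaks of 24h embryos as bars against distance in bp from each gene's start, with control and KO heights in RPM above; right, log2 of KO over control per peak with 95% counting intervals, the grey band holding 10% to 90% of all promoter peaks and the grey line their median. The Kdm1a peak over the start stands at 0.37, outside the band, and Kdm5b has no peak in the window.

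Further peaks of H3K4me3, beyond 2 kb but within 5 kb or inside the gene, numbered 15 in 6 of the genes and held 1.76 to 28.1 RPM in control. Their log2 ratios ran from -0.54 to 0.20, 10 below 0 and 5 above, and 0 passed 2-fold, against 0.0781% of all H3K4me3 peaks. The lowest was a small peak inside Kdm1b, 12362 bp from its start, with 2.03 RPM in control and 1.39 RPM in KO (135 and 69 reads).

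No peak of the other marks lay at these genes. H3K27me3 peaks were within 2 kb of the start of 0 of the 10 genes, against 17.8% of protein-coding genes, and none lay within 5 kb or inside the genes. AcNPM1 peaks were likewise at 0 of 10 in the table of control and KO embryos (15.8% of protein-coding genes) and at 0 of 10 in the table of KO embryos with and without the p300 inhibitor (18.2%). A region without a peak in these lists may hold signal under the authors' threshold.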

How the data were processed

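The deposited RNA tables hold raw counts per gene with Ensembl IDs and mm10 positions, made with HTSeq 0.6.0, HISAT2 2.1.0 and Bowtie2 2.2.3, per the submitters' processing notes, which give no roles. The authors also deposited a mean signal per gene (counts over size factors) and a fold change, as a ratio or, at 24h, as log2. The deposited peak tables hold read counts, total reads, RPM and a log2 ratio per peak; the tools listed for them in those notes are MACS2 2.1.1, Bowtie2 2.1.0 and bcl2fastq 2.2, and whether peaks were called on pooled samples is not given in the sources used here. The RPM were recomputed and differed from the deposited ones by at most 5e-05.

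Count columns were assigned to groups by prefix and table, since the 18h to 22h and mESC groups have fewer columns than labelled samples; nothing says that columns came from separate animals or cultures, and p-values measure only the spread between columns. At 24h, columns of a group that correlated over 0.99 in log2 CPM were summed, which left 2 libraries a group; the mESC columns, which passed the same threshold, were kept apart so that a fit could be made. Comparisons used edgeR 4.0.16 in R 4.3.3 (TMM scaling, filterByExpr, quasi-likelihood test, Benjamini-Hochberg over all genes tested, threshold 0.05). They were tested on simulated data, in which most 4-fold changes were missed at 18h and 20h and 0% were recovered at 24h. Most were also missed in the fit over 18h, 20h and 22h. Alternatives were DESeq2 1.42.0, median-of-ratios scaling, no filter, leaving out each library, other windows and scalings of peaks. A peak belonged to a gene when any base lay within 2 kb of the start of the gene's position in the authors' RNA tables.

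All 10 genes are described in every comparison; genes of the 4 pathway lists are named where the edgeR adjusted p passed 0.05, at most 4 per list by size of change. The genes and lists were chosen with earlier results of these data known. Summed marker lists stood in control embryos of 18h to 22h at 17.0 to 106.4 CPM (cumulus and granulosa cells), 3.76 to 16.7 CPM (fibroblasts), 3.59 to 19.1 CPM (blood cells) and 3.62 to 69.1 CPM (sperm and testis). In KO embryos of 22h the cumulus and granulosa markers held 59.2 to 189.6 CPM. At 24h they held 2.19 to 84.0 CPM in KO and 0.0688 to 3.53 CPM in controls. Blood markers at 24h held 1.27 to 200.0 CPM in KO and 21.8 to 42.6 CPM in controls. The part of these lists in the changes was not tested.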

Additional observations from a re-analysis of the deposited data

How the results depend on the processing

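The number of the 10 genes called stayed within 1.5 times the main count in every comparison under DESeq2, median-of-ratios scaling, no filter on low counts and each library left out, with 0 called in the embryo KO comparisons under each. Which genes made up the count did change: Kmt2a in mESC lost its call under DESeq2 (-0.12), without a filter (-0.08) and without any 1 of the 4 columns (-0.12 to -0.07). The Kdm1b change in mESC ran from -0.24 to 0.036 with each column left out, the last without control column 1. The Kdm5b change of KO over control, in the fit over 18h to 22h, was -0.08 and ran from -0.19 to 0.10 with each library left out. It turned to 0.10 without control library 3 of 18h, 0.065 without KO library 2 of 18h and 0.034 without control library 1 of 20h. Scaling by reads in peaks added 0.11 to every H3K4me3 log2 ratio, so that 10 of the 14 were above 0 in place of 6; the 4 that turned were Kdm1b (-0.09 to 0.013), Setd1a (to 0.00097), Kdm5a (to 0.047) and the downstream Kmt2a peak (to 0.053), and the upstream Kmt2b peak moved to -0.06. No window of 1 or 5 kb gave a peak of another mark at these genes.

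The number of all genes called depended more on the method. DESeq2 called 64 at 18h (edgeR 1), 22 at 20h (edgeR 2), 5 at 22h (edgeR 1), 411 at 24h (edgeR 0), 8 over the 3 times (edgeR 1) and 15 for a KO effect that differs between times (edgeR 0). Without a filter edgeR called 72, 15, 33 and 3 at 18h, 20h, 22h and 24h. With each library left out the count was 1 to 2 at 20h (1 without any library but KO library 3), 1 to 2 at 22h (2 without control library 3), 0 to 39 at 24h (39 without control library 2, 14 without control library 1, 1 without KO library 1) and 1 to 6 over the 3 times (6 without control library 3 of 22h, 2 without control library 1 of 20h). Taking each 24h column as a library gave 823, none of them among the 10 genes. The causes were not tested. A replicate block on the last digit of the column names was added after the data were seen; the labels do not say what that digit marks, and same-numbered columns did not deviate together at 18h to 22h (correlations of -0.19 to 0.15). With it edgeR called 2 genes over the 3 times, none of the 10 in any embryo comparison and 8 of the 10 in mESC (7 without it). In mESC Kmt2c then passed (-0.11, edgeR adjusted p = 0.0323). The Kdm5a change of KO over control in the fit over the 3 times turned from -0.31 to 0.036. At 24h no such fit was made, since the column numbers differ between groups.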
